A study of Mus musculus with 6 samples.

Results

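This account describes 39 genes of homologous recombination, the Fanconi pathway, mismatch recognition and the DNA damage checkpoint in regenerating mouse liver. They were taken by gene symbol from the 34745 genes of the deposited table, and all 39 were found once. RNA was sequenced from mice labelled Sox9HKO (HKO, 3 libraries) and Sox9f/f (WT, 3 libraries), all 12-week-old C57BL/6 mice sampled 48 h after partial hepatectomy (PHx), an operation after which the remaining liver grows back. Both groups thus share the operation, and the WT mice carry the floxed Sox9 allele. The labels name liver as the tissue and hepatocyte as the cell type. They do not say what drives the deletion in HKO, which exons it removes or whether each library is a separate mouse; p-values therefore measure the spread between libraries, which may be technical. Coordinates are those of the deposited table, on GRCm38 (mm10).

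Homologous recombination mends a break through both DNA strands by copying the sister chromatid, so it works after a cell has begun to replicate its DNA. The MRE11-RAD50-NBN complex and EXO1 trim the broken ends, BRCA1 with BARD1 and BRCA2 with PALB2 prepare the strand exchange, XRCC2, XRCC3 and their relatives assist it, and BLM with RMI1 and RMI2, or MUS81 with EME1, take the joined molecules apart. The Fanconi proteins undo crosslinks between the strands: a core complex and the conjugating enzyme UBE2T attach ubiquitin to the FANCD2-FANCI pair. ATM and ATR are kinases that sense breaks and stalled forks, and they signal through CHK2 and CHK1. Many genes of these pathways are transcribed mainly in cycling cells, and hepatocytes that have left quiescence after PHx are such cells.

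The libraries held 16659778 to 21168233 counts. Sox9, the targeted gene, stood at 6.34, 4.3 and 4.78 CPM (counts scaled to a common library size by the TMM method) in HKO 1, 2 and 3 and at 6.94, 13.7 and 11.3 CPM in WT 1, 2 and 3. All its HKO values were under its WT values, and it fell with log2 fold change -1.05 (SE 0.27, adjusted p = 0.0284), and this call was lost without HKO 2, HKO 3, WT 2 or WT 3 (adjusted p from 0.0503 to 0.0975). Hepatocyte markers such as Alb summed to between 72550 and 73569 CPM in HKO and between 76258 and 92876 CPM in WT, so the defining markers of the labelled cell type were present in all libraries. Of 8 markers a list, those of endothelial cells summed to 373 CPM in HKO 2, to 132 and 156 CPM in HKO 1 and 3, and to 79.9 to 127 CPM in WT. Stellate cell markers summed to 517 CPM in HKO 2, 142 and 154 CPM in HKO 1 and 3 and 90.1 to 133 CPM in WT, and Kupffer cell and macrophage markers to 205 CPM in HKO 2, 328 and 314 CPM in HKO 1 and 3 and 143 to 152 CPM in WT. Markers of biliary cells summed to 40.6 to 63.4 CPM in HKO and 73.4 to 183 CPM in WT, of B and plasma cells to 20.2 to 27.4 and 1.11 to 2.36 CPM, of neutrophils to 1.14 to 5.12 and 0.556 to 0.899 CPM, and of T and NK cells to 0.775 to 1.40 and 0.222 to 1.40 CPM. The defining markers Cd3d, Cd8a, Ly6g and Camp had no count in any library, and endothelial, stellate, Kupffer and biliary lists had none at 0. By the test 8 of 8 Kupffer cell and macrophage, 3 of 8 stellate, 3 of 8 hepatocyte and 1 of 8 endothelial markers rose, as did 3 of 3 tested B and plasma cell markers (median log2 fold change 3.59) and the 1 tested neutrophil marker (1.78). Of 4 tested biliary markers 3 fell, and the 1 tested T and NK cell marker did not pass. Of all tested genes 12.1% were higher and 11.2% lower. HKO 2 thus stands apart in its endothelial and stellate markers, and 25.85% of its counts were from mitochondrial genes, against 12.12% to 16.28% in the other libraries. The part of other cells in the results below was not tested, and in bulk RNA fewer cells of a type cannot be told apart from less RNA per cell.

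Of the 39 repair genes, 10 were lower in HKO, none was higher and 29 did not pass the test. The 10 were Xrcc2, Bard1, Rmi1, Fancb, Fancd2, Rad54b, Rad50, Chek2, Fanci and Rad51ap1, which spread over recombination, the Fanconi pathway and the checkpoint kinases. The test was edgeR's quasi-likelihood test over 12556 genes with Benjamini-Hochberg adjustment and a threshold of 0.05, and all 39 passed the filter on low counts. The 10 are 25.6% of the members, where 11.2% of all tested genes were lower and 12.1% higher. The median log2 fold change was -0.56 over the 39 genes and 0.02 over all tested genes. In 19 members every HKO value lay below every WT value, in 1 (Xrcc3) every HKO value lay above, and in 19 the groups overlapped. Over all tested genes these orders were found in 21.6% and 22.6%.

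**Figure D1:**
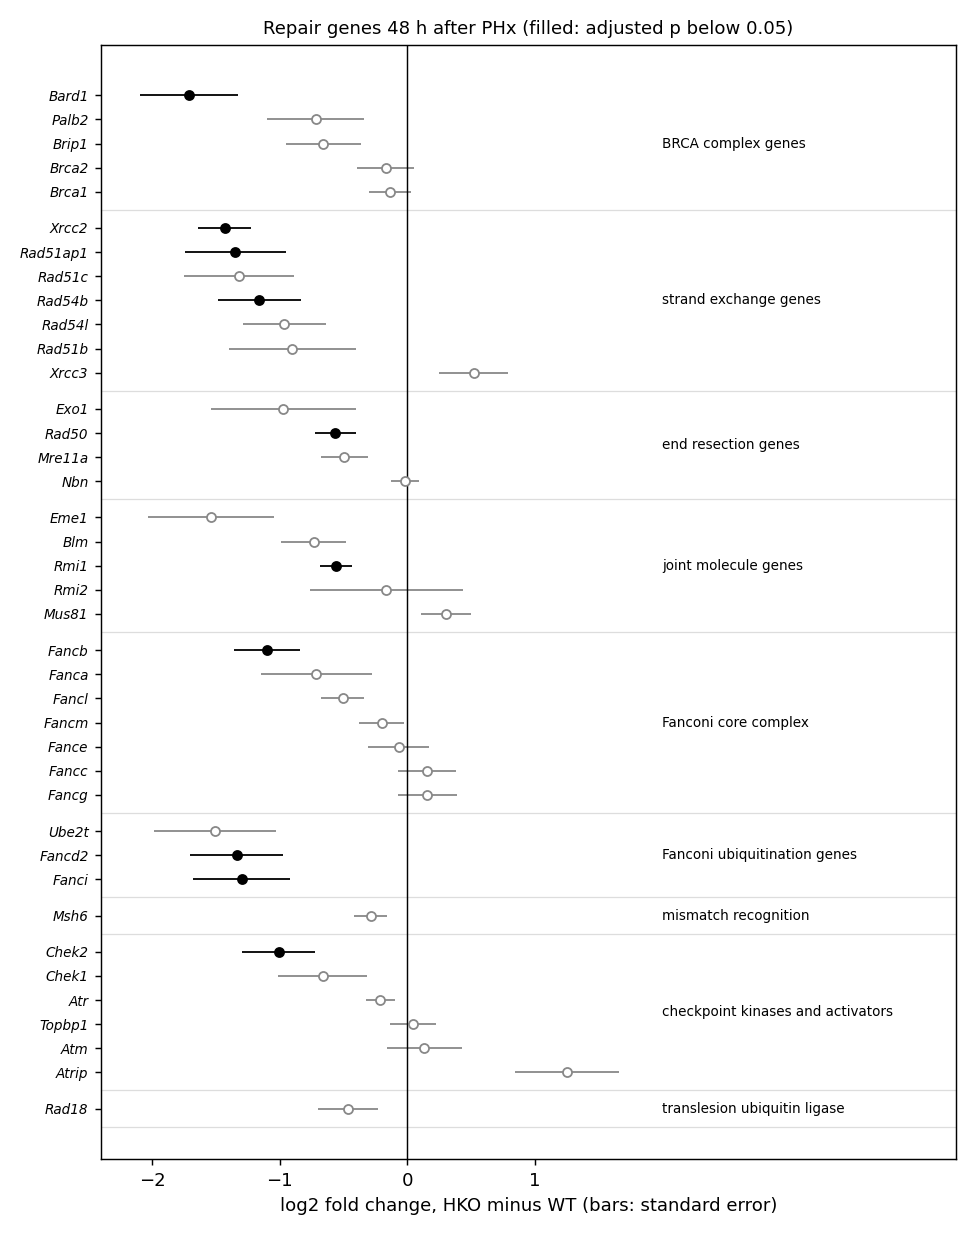
Log2 fold change (HKO minus WT, x axis) of the 39 repair genes by role, with bars for the standard error. Filled points passed the test, and all 10 of them lie left of 0, between -1.71 (Bard1) and -0.55 (Rmi1).

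The number of lower genes changed with the libraries used. Without HKO 2 it was 21 (12.2% of all tested genes were lower in that fit), and the median log2 fold change was -0.72. With any other library left out it was 2 to 4: 2 without HKO 1, HKO 3 or WT 1, 3 without WT 3 and 4 without WT 2. Of all tested genes 7.71%, 7.1%, 8.24%, 5.32% and 6.98% were lower in these fits, in that order. Xrcc2 kept its call in all 6 of these fits and Rmi1 in 5 of them. Other tools and settings gave 7 to 14 lower members: 13 by DESeq2 (7.76% of its genes lower), 14 by limma-voom (11.6%), 11 without a filter (6.85%), 10 with DESeq2 size factors (11.3%), 10 without mitochondrial genes (11.2%) and 7 in a fit blocked by replicate number (8.88%). A member was called higher, Atrip alone, by DESeq2 (8.66% of all genes higher), with the block (9.92%) and without HKO 3 (7.59%). Without adjustment, 17 members were lower and 1 was higher at p under 0.05. Over all 12556 tested genes these counts were 2306 lower and 2534 higher. Relative to the WT mean, the members' median stood at -0.74 in HKO 1, -0.23 in HKO 2 and -0.67 in HKO 3 on the log2 scale. HKO 2 was the highest HKO library for 31 of the 39 members (79.5%), against 33.6% of all tested genes.

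These genes were expressed at a low level. Their median was 0.514 FPKM (the deposited length-scaled level, put on the common library scale), against 2.37 FPKM over all tested genes, and 35 of 39 stayed below 2 FPKM in both groups. Nbn was the highest at 6.02 FPKM and Palb2 the lowest at 0.119 FPKM. The counts behind these levels ran from 4 to 513 a library, and 10 members had under 20 counts in at least 1 library. The 20 members at or below the median level held 3 of the lower genes, and the 19 above it held 7.

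Promoter sequences are shown for the 4 lower genes with the smallest adjusted p among those with a matched window, to show which letters of 3 cell cycle promoter elements they hold. Letters of the E2F element (any of TTCCCGC and TTGGCGC and TTGCCGC and TTCGCGC, on either strand), to which the transcription factors of S phase entry bind, were searched in RefSeq promoter windows of 300 bases (250 before and 50 after the start, GRCm38.p6). The CHR element (TTTGAA, a motif of genes that peak in mitosis) and the CCAAT box (CCAAT), each on either strand, were searched too. None of these letter strings contains another. Windows were matched for 32 of the 39 members, and the first listed window of each gene was used. The stretches below were cut to the longest run before the start that lies in no annotated exon. Each reads 5′ to 3′ along the gene's strand, with the matched letters in capitals:
Bard1, chr1:71103147-71103222, minus strand: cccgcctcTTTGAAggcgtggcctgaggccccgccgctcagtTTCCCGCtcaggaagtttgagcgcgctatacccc
Rmi1, chr13:58402143-58402247, plus strand: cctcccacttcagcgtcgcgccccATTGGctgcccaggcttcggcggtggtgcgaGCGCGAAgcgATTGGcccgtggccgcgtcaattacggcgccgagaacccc
Fancb, chrX:164980376-164980591, plus strand: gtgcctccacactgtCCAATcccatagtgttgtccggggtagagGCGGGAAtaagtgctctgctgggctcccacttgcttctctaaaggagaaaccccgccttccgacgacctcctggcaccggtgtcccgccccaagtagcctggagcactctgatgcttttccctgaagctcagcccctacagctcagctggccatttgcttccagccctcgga
Chek2, chr5:110839778-110839978, plus strand: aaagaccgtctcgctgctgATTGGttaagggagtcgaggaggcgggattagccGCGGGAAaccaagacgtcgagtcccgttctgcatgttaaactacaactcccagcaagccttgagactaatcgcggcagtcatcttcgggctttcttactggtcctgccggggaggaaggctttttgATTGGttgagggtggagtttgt

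The E2F letters stand once in each of these 4 promoters: at bases -208 to -202 from the RefSeq start in Bard1, -50 to -44 in Rmi1, -172 to -166 in Fancb and -152 to -146 in Chek2. In Rmi1 the match sits between a pair of CCAAT boxes read on the other strand, and in Bard1 it follows a CHR match. Of the lower genes with a window, 6 of 6 held the E2F letters (Bard1, Rad51ap1, Rmi1, Fancb, Fanci and Chek2), as did 12 of 26 members that did not pass, 18 of 32 in all (56.2%) and 9.69% of the first windows of 27025 genes. The CHR letters were found in 2 of 32 members (6.25%, against 18.1% of all first windows) and the CCAAT letters in 20 of 32 (62.5%, against 37.9%). A match is a run of letters, not a shown binding site, and these shares were not tested.

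Among the BRCA genes, Bard1 fell and its partner Brca1 did not pass the test. Bard1 (ENSMUSG00000026196, chromosome 1, 71027498 to 71103146, minus strand) encodes the subunit that forms the ubiquitin ligase with BRCA1. Libraries HKO 1, 2 and 3 had 0.591, 1.45 and 0.775 CPM, against 3.83, 2.86 and 2.5 CPM in WT 1, 2 and 3. Every HKO library was thus under every WT library, with HKO 2 the nearest. The mean was 3.07 ± 0.688 CPM in WT against 0.940 ± 0.455 CPM in HKO (SD, n = 3), with log2 fold change -1.71 (SE 0.39, adjusted p = 0.0178), the largest fall of the 39. The call was lost without HKO 1, HKO 3 or WT 1 (adjusted p = 0.0504, 0.0615 and 0.0541).

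Brca1 (ENSMUSG00000017146, chromosome 11, 101488764 to 101551955, minus strand) stood at 7.90, 10.9 and 8.11 CPM in HKO against 10.2, 9.10 and 10.3 CPM in WT. HKO 2 was above every WT library and the other HKO libraries were below every one. Its log2 fold change was -0.14 (SE 0.17, adjusted p = 0.584). Brca2, whose product acts in strand exchange at the break, stood at 4.14, 4.65 and 3.65 CPM in HKO against 5.83, 4.10 and 4.03 CPM in WT, with overlapping groups and log2 fold change -0.17 (SE 0.22, adjusted p = 0.613). Brip1, a helicase that binds BRCA1, had a log2 fold change of -0.66 (adjusted p = 0.139), and Palb2, which joins BRCA1 to BRCA2, had -0.72 (adjusted p = 0.203). Without HKO 2 the call of Brip1 was made (adjusted p = 0.0341).

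The genes of strand exchange (Rad51b, Rad51c, Xrcc2, Xrcc3, Rad51ap1, Rad54l and Rad54b) held 3 of the 10 lower genes. Xrcc2 (ENSMUSG00000028933, chromosome 5, 25689812 to 25705825, minus strand), whose product assists strand exchange, stood at 1.93, 2.68 and 1.96 CPM in HKO against 6.00, 5.62 and 6.10 CPM in WT. The groups were far apart, and the spread within each was small: 5.91 ± 0.256 CPM in WT against 2.19 ± 0.421 CPM in HKO (SD, n = 3). Its log2 fold change of -1.43 (SE 0.21) had the smallest adjusted p of the 39, 0.00334, and the call held with any 1 library left out (adjusted p from 0.00127 to 0.0238).

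Rad54b (ENSMUSG00000078773, chromosome 4, 11558922 to 11615805, plus strand), a motor protein gene of strand exchange, stood at 1.72, 3.72 and 1.73 CPM in HKO against 5.39, 5.0 and 5.55 CPM in WT, log2 fold change -1.16 (SE 0.32, adjusted p = 0.0365). Rad51ap1 (ENSMUSG00000030346, chromosome 6, 126923050 to 126939587, minus strand), whose product stimulates strand exchange, stood at 0.645, 1.98 and 1.05 CPM in HKO against 3.22, 2.86 and 3.23 CPM in WT, log2 fold change -1.35 (SE 0.40, adjusted p = 0.0435). In both genes the WT libraries lay close together, and HKO 2 lay between them and the other HKO libraries. Both calls were lost when a library other than HKO 2 was dropped (adjusted p from 0.0786 to 0.114 for Rad54b and from 0.0861 to 0.126 for Rad51ap1). Rad54b shares 2068 exon bases with Fsbp on the same strand, which fell as well (log2 fold change -1.46, adjusted p = 0.0414), so their counts are uncertain.

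Of the others in this group, Rad51c and Rad54l had all HKO values below all WT values without passing (log2 fold changes -1.32 and -0.96, adjusted p = 0.0606 and 0.0662). Without HKO 2 both were called (adjusted p = 0.00642 and 0.00901). Exons of Rad54l lie opposite those of Lrrc41 over 1184 bases, and Lrrc41 did not pass (log2 fold change 0.09, adjusted p = 0.555). Lrrc41 stood at 29.8 to 32.6 CPM in HKO and 27.5 to 30.6 CPM in WT, so the counts of Rad54l are uncertain. Rad51b, with 4 to 15 counts a library, had -0.90 (SE 0.50, adjusted p = 0.224). Xrcc3, the partner of RAD51C, stood at 2.15, 2.56 and 2.73 CPM in HKO against 2.0, 1.35 and 1.83 CPM in WT. It is the member with all HKO values above all WT values, and its log2 fold change, 0.52 (SE 0.27, adjusted p = 0.196), did not pass.

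**Figure D2:**
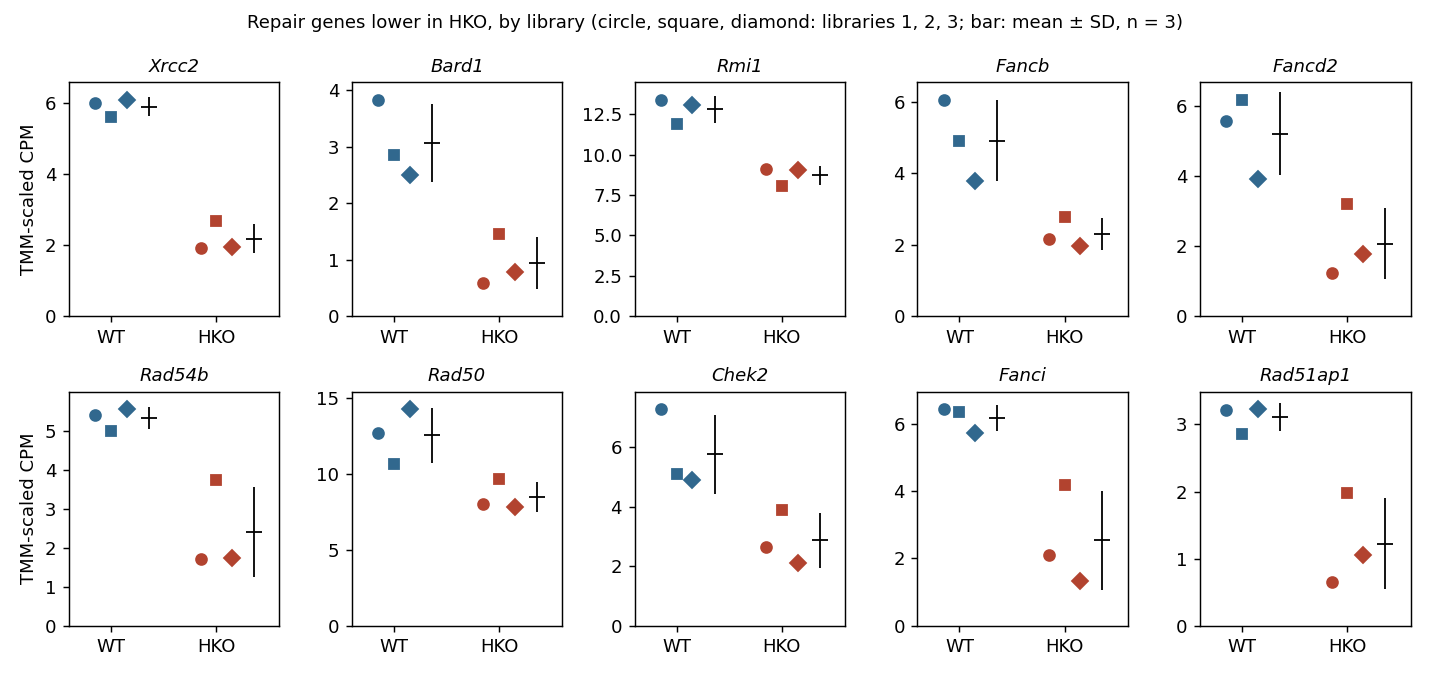
TMM-scaled CPM (y axes, from 0) of the 10 repair genes lower in HKO, for each of 3 WT and 3 HKO libraries, with mean ± SD beside them. The groups do not overlap in any of the 10, and HKO 2 (square) is the highest HKO library in 9 of them, the exception being Rmi1.

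Of the 4 genes of end resection 1, Rad50, was lower and 3 did not pass. Rad50 (ENSMUSG00000020380, chromosome 11, 53649519 to 53707319, minus strand), the ATPase that bridges broken ends, stood at 8.0, 9.65 and 7.84 CPM in HKO against 12.7, 10.7 and 14.3 CPM in WT. The groups came close at HKO 2 and WT 2 but did not overlap. It fell from 12.6 ± 1.84 to 8.5 ± 1.0 CPM (SD, n = 3), log2 fold change -0.56 (SE 0.16, adjusted p = 0.0383). The call was lost without HKO 1, HKO 3, WT 1 or WT 3 (adjusted p from 0.0791 to 0.141). The nuclease gene Mre11a had all HKO values below all WT values but did not pass (log2 fold change -0.49, adjusted p = 0.0877). Nbn, the third subunit, ran from 16.6 to 19.0 CPM in HKO and from 16.5 to 18.9 CPM in WT, with log2 fold change -0.02 (SE 0.11, adjusted p = 0.932). Exo1, a nuclease of long-range resection and mismatch repair, had 9 to 35 counts a library and log2 fold change -0.97 (SE 0.57, adjusted p = 0.246). It stood at 0.537, 1.80 and 0.410 CPM in HKO against 1.94, 1.24 and 2.14 CPM in WT, and was called without HKO 2 (adjusted p = 0.0136).

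Of the genes that take joined molecules apart, Rmi1 (ENSMUSG00000035367, chromosome 13, 58402597 to 58411149, plus strand), a subunit of the BLM dissolvasome, was lower. It stood at 9.08, 8.03 and 9.02 CPM in HKO against 13.4, 11.9 and 13.1 CPM in WT, log2 fold change -0.55 (SE 0.13, adjusted p = 0.018). Here HKO 2 was the lowest HKO library, and the call was lost without WT 3 only (adjusted p = 0.0733). In the annotation 330 exon bases of Rmi1 lie opposite exons of Hnrnpk, which was at 73.2 to 75.6 CPM in HKO and 87.9 to 102 CPM in WT (log2 fold change -0.35, adjusted p = 0.0282). The library protocol names no step that marks the strand, and reads of the shared bases cannot be told apart.

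The helicase gene Blm had all HKO values below all WT values without passing (log2 fold change -0.73, adjusted p = 0.0711). Rmi2, with 5 to 22 counts a library, had -0.16 (SE 0.60, adjusted p = 0.867). Eme1 stood at 0.591, 1.80 and 0.501 CPM in HKO against 2.78, 2.25 and 3.30 CPM in WT, and its log2 fold change, -1.54 (SE 0.49, adjusted p = 0.058), was the most negative of those that did not pass. Its exons lie partly opposite Lrrc59 (221 bases), which fell with a log2 fold change of -0.65 (adjusted p = 0.00523). Lrrc59 stood far above Eme1, at 111 to 138 CPM in HKO and 184 to 200 CPM in WT. The counts of Eme1 are therefore uncertain. Mus81, the nuclease subunit that pairs with EME1, had 0.30 (SE 0.20, adjusted p = 0.301) with overlapping groups. Exons of Mus81 lie opposite those of Efemp2 over 173 bases, so its counts are uncertain too. Efemp2 reached 8.49 CPM in HKO 2 and ran from 1.52 to 3.23 CPM in the other libraries.

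In the Fanconi pathway the 3 genes of the ubiquitination step had a lower median than the 7 tested genes of the core complex, -1.34 against -0.20 on the log2 scale, a difference that was not tested. Fancd2 (ENSMUSG00000034023, chromosome 6, 113531682 to 113597017, plus strand) stood at 1.24, 3.20 and 1.78 CPM in HKO against 5.56, 6.18 and 3.91 CPM in WT. It fell with log2 fold change -1.34 (SE 0.36, adjusted p = 0.0335), with HKO 2 and WT 3 the nearest libraries. Fanci (ENSMUSG00000039187, chromosome 7, 79391929 to 79450264, plus strand) stood at 2.10, 4.19 and 1.32 CPM in HKO against 6.44, 6.35 and 5.74 CPM in WT, log2 fold change -1.30 (SE 0.38, adjusted p = 0.0432). The pair thus fell by like amounts, and the calls of both were lost when a library other than HKO 2 was dropped (adjusted p from 0.0591 to 0.104 for Fancd2 and from 0.0793 to 0.113 for Fanci). Exons of Fanci lie opposite those of Polg over 921 bases, and Polg did not pass (log2 fold change 0.22, adjusted p = 0.142). Polg stood far above Fanci, at 34.1 to 38.9 CPM in HKO and 29.2 to 32.5 CPM in WT. The counts of Fanci are therefore uncertain. Ube2t stood at 0.806, 2.62 and 0.729 CPM in HKO against 4.39, 3.54 and 3.72 CPM in WT. All HKO values lay below all WT values, with log2 fold change -1.51 (SE 0.48, adjusted p = 0.0563). It passed by DESeq2 and limma-voom (adjusted p = 0.0157 and 0.0197) and without HKO 2 (adjusted p = 0.000904).

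Of the core complex, Fancb alone was lower. Fancb (ENSMUSG00000047757, chromosome X, 164980592 to 164997272, plus strand), a partner of the ligase FANCL, stood at 2.15, 2.79 and 1.96 CPM in HKO against 6.06, 4.89 and 3.78 CPM in WT, without overlap. Its log2 fold change was -1.10 (SE 0.26, adjusted p = 0.0205), and the call was lost without HKO 1, HKO 3, WT 1 or WT 2 (adjusted p from 0.0598 to 0.0672). Fancl, the ligase gene, had all HKO values below all WT values but did not pass (log2 fold change -0.51, adjusted p = 0.0684). Fanca had -0.71 (SE 0.43, adjusted p = 0.265) with HKO 2 at 5.64 CPM and the other HKO libraries at 1.72 and 2.23 CPM. Exons of Fanca lie partly opposite Zfp276 (920 bases), which rose with a log2 fold change of 0.73 (adjusted p = 0.0216). Fancm, Fance, Fancc and Fancg lay between -0.20 and 0.16 with adjusted p from 0.437 to 0.868.

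Msh6, which encodes a subunit that recognizes mismatches in newly copied DNA, stood at 13.2, 15.1 and 12.8 CPM in HKO against 18.8, 16.0 and 15.2 CPM in WT. The groups just failed to overlap, and the log2 fold change, -0.29 (SE 0.13, adjusted p = 0.15), did not pass. Rad18, a ubiquitin ligase gene of damage tolerance at stalled forks, stood at 3.17, 5.47 and 3.69 CPM in HKO against 6.06, 5.84 and 5.06 CPM in WT. HKO 2 lay within the WT range there, and the log2 fold change was -0.46 (SE 0.24, adjusted p = 0.192). It passed without HKO 2 (adjusted p = 0.0354).

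Among the checkpoint kinases Chek2 was lower and Atm, Atr and Chek1 did not pass. Chek2 (ENSMUSG00000029521, chromosome 5, 110839979 to 110874145, plus strand), which encodes the kinase CHK2 downstream of ATM, stood at 2.63, 3.90 and 2.10 CPM in HKO against 7.28, 5.11 and 4.88 CPM in WT. It fell from 5.76 ± 1.32 to 2.87 ± 0.924 CPM (SD, n = 3), log2 fold change -1.01 (SE 0.29, adjusted p = 0.0389). Its call was lost when a library other than HKO 2 was dropped (adjusted p from 0.0732 to 0.11). Chek1, the kinase gene downstream of ATR, stood at 2.63, 4.25 and 1.64 CPM in HKO against 3.61, 4.61 and 5.19 CPM in WT, with overlap at HKO 2. Its log2 fold change, -0.66 (SE 0.35, adjusted p = 0.202), passed without HKO 2 only (adjusted p = 0.031).

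Atm stood at 6.77, 9.30 and 14.2 CPM in HKO against 6.61, 11.1 and 9.95 CPM in WT, a wide spread in both groups with log2 fold change 0.13 (SE 0.30, adjusted p = 0.773). Atr stood at 15.8, 17.2 and 19.3 CPM in HKO against 20.6, 19.6 and 20.3 CPM in WT. Its HKO values lay below all WT values by a small margin, with log2 fold change -0.21 (SE 0.11, adjusted p = 0.21). Topbp1, an activator of ATR, reached 29.8 CPM in HKO 2, and the other 5 libraries ran from 18.2 to 23.2 CPM. Its log2 fold change was 0.05 (adjusted p = 0.877). Atrip, which encodes the partner that brings ATR to single-stranded DNA, stood at 3.60, 4.48 and 1.82 CPM in HKO against 1.06, 1.91 and 1.16 CPM in WT. Its log2 fold change, 1.25 (SE 0.41, adjusted p = 0.0599), was the highest of the 39 and did not pass, though it passed by DESeq2 (adjusted p = 0.0392) and without HKO 3 (adjusted p = 0.0326). Exons of Atrip and of the nuclease gene Trex1 share 1147 bases on the same strand, and Trex1 had a log2 fold change of 0.44 (adjusted p = 0.592).

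**Figure D3:**
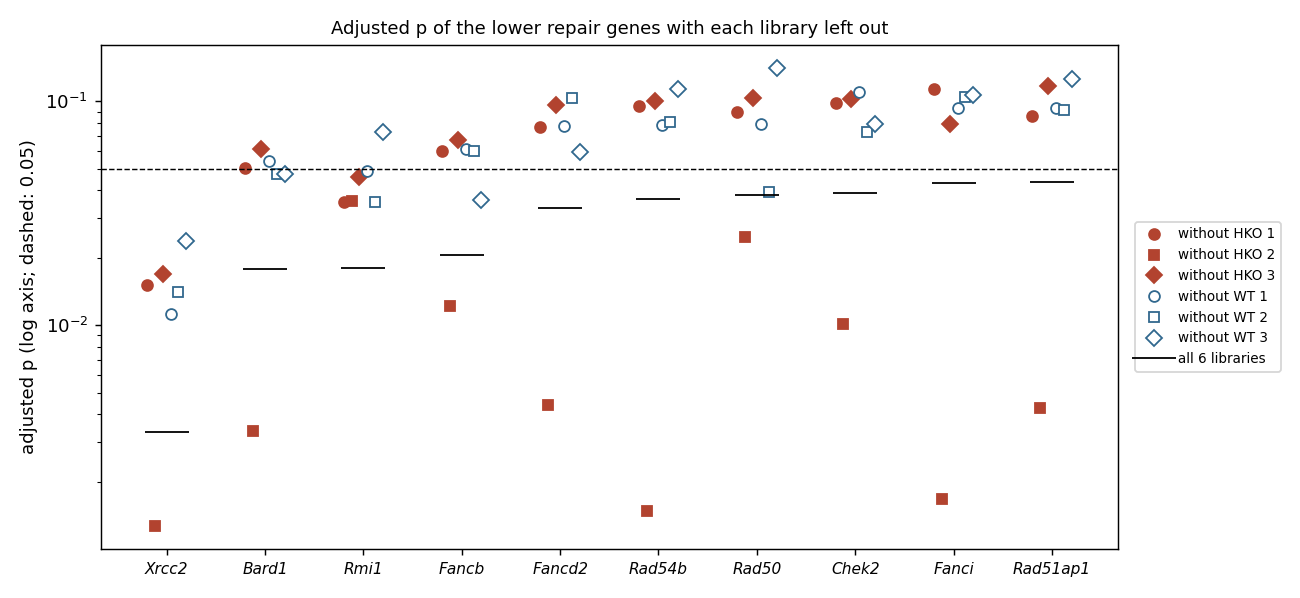
Adjusted p (y axis, log scale) of the 10 lower repair genes with all 6 libraries (bar) and with each library left out (points); the dashed line is the threshold of 0.05. Only Xrcc2 has all 6 points below the line, and the fit without HKO 2 gives the smallest of the 6 for every gene but Rmi1.

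Several of these proteins work as pairs or in the same complex, so the ratio of their genes' length-scaled levels was set between the groups. Xrcc2 to Xrcc3 is instead a ratio of related genes, since XRCC3 has RAD51C as its partner. The 10 pairs were chosen after the fold changes were seen, and the two-sided exact permutation test of 3 against 3 libraries cannot give a p below 0.1. The Bard1 to Brca1 ratio on the log2 scale was -2.69, -1.86 and -2.34 in HKO and -0.36, -0.62 and -0.99 in WT, a difference of -1.64 (exact p = 0.1, adjusted p = 0.25 over the 10 pairs). For Eme1 to Mus81 the difference was -2.08, for Xrcc2 to Xrcc3 -1.98 and for Rad50 to Nbn -0.54, each also without overlap of the groups and with an exact p of 0.1 (adjusted p = 0.25). Exon overlaps leave the counts of Eme1, Mus81 and Fanci uncertain, and with them the ratios of Eme1 to Mus81 and Fanci to Fancd2. Fanci to Fancd2 and Rad50 to Mre11a gave differences of -0.03 and -0.06 with overlapping groups (exact p = 1). Atrip to Atr, with a difference of 1.43, overlapped (exact p = 0.2, adjusted p = 0.286). The remaining pairs, Rmi2 to Rmi1, Palb2 to Brca2 and Rad51b to Rad51c, overlapped too, with differences of 0.49, -0.56 and 0.39. No pair passed the threshold, which the design could not reach.

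**Figure D4:**
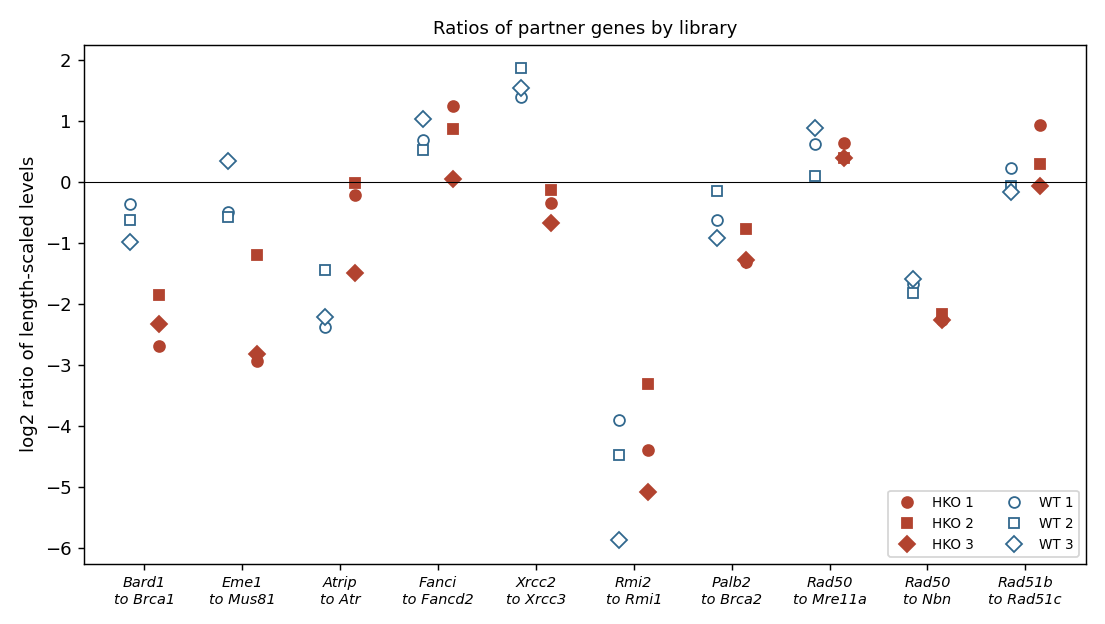
Log2 ratio of length-scaled levels (y axis) of 10 gene pairs in each library, WT open and HKO filled. HKO and WT are separate for Bard1 to Brca1, Eme1 to Mus81, Xrcc2 to Xrcc3 and Rad50 to Nbn, and overlap in the other 6 pairs.

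Further genes of the same pathways were read from lists that exclude the 39. In a list of 31 other recombination and Fanconi genes 5 were lower (16.1%, against 11.2% of all tested genes) and 26 did not pass. The list's median log2 fold change was -0.25. Gen1, a nuclease gene that cuts joined molecules, fell from 3.98 ± 0.210 to 1.15 ± 0.381 CPM (SD, n = 3), a log2 fold change of -1.79 (adjusted p = 0.00537), and kept its call with any library left out. Polq, the polymerase gene of an alternative end joining route, and Faap24, a partner gene of Fancm, fell with -1.73 and -1.07, and Wdr48, a cofactor gene of the enzyme that removes ubiquitin from FANCD2, with -0.47. The calls of these 3 were each lost in 4 of 6 fits with a library left out (adjusted p up to 0.0825). Of 6 other mismatch repair genes 2 fell (33.3%, against 11.2% of all tested genes). Pms1 fell with -0.77 (adjusted p = 0.0124) and lost its call without WT 2. Of 10 other replication checkpoint genes 3 fell (30%) and 1 rose, against 11.2% of all tested genes lower and 12.1% higher. Clspn, which encodes the adaptor between ATR and CHK1, fell with -1.19, and Etaa1 and Rad17 with -0.76 and -0.40. Wee1, which encodes an inhibitor of mitotic entry, rose with 0.82 (adjusted p = 0.0266). These 4 lost their calls in 3 to 5 of the 6 fits.

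The repair genes, with a median of -0.56, were set beside lists of S phase and of G2/M genes. Of 23 S phase genes none passed edgeR's test (median log2 fold change -0.40), where 6 were lower at an unadjusted p under 0.05, 3 passed as lower by DESeq2 and 3 by limma-voom. Of 18 G2/M genes 17 fell (94.4%, against 11.2% of all tested genes), with a median of -1.98. Ccnb1, a cyclin gene of mitotic entry, and the proliferation marker gene Mki67 fell with -2.43 and -2.0. In HKO 2 the medians relative to WT were 0.0039 for the S phase list, -0.23 for the 39 repair genes and -1.03 for the G2/M list. In HKO 1 and 3 they were -0.75 and -0.73, -0.74 and -0.67, and -3.03 and -2.69. Without HKO 2, 14 S phase genes, 21 repair genes and 18 G2/M genes were lower, where 12.2% of all tested genes were lower. The lists' median log2 fold changes were then -0.75, -0.72 and -2.80. The differences between the lists were not tested.

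**Figure D5:**
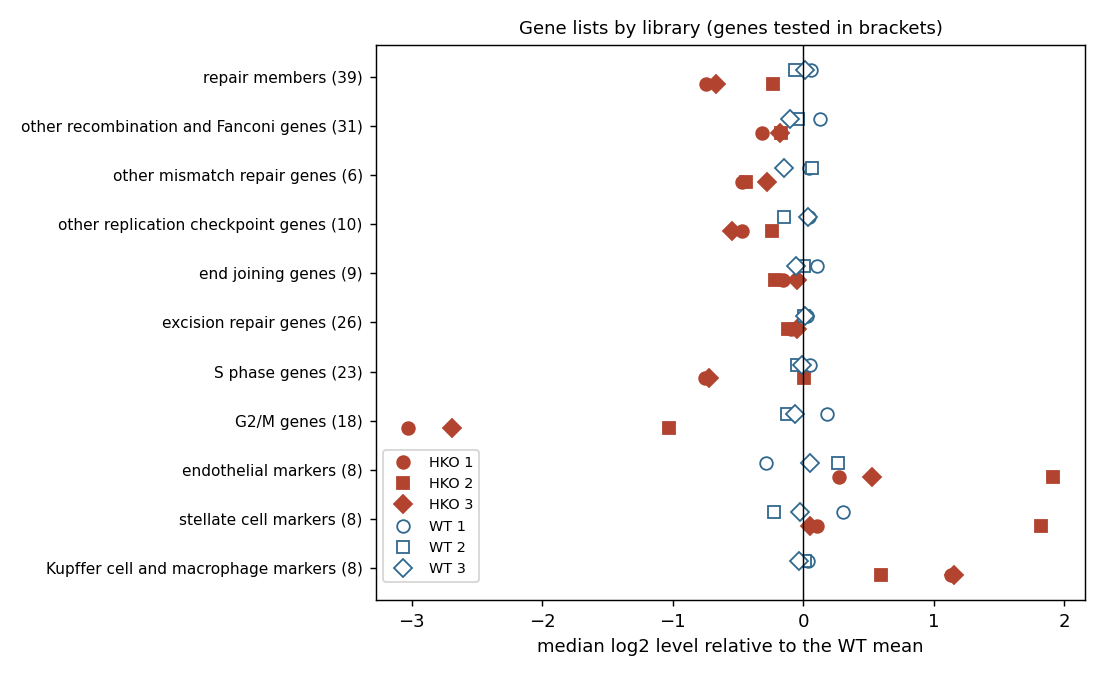
Median log2 level relative to the WT mean (x axis) of the 39 repair genes and of comparison lists, for each library (HKO filled, WT open). For the repair, S phase and G2/M lists HKO 2 lies nearer to WT than HKO 1 and 3, and it lies at 1.92 and 1.82 for endothelial and stellate markers.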

How the data were processed

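Per the submitters' processing notes, HISAT2 2.0.4 and StringTie 1.3.0 were used with builds mm10 and GRCm38.p4; their roles and settings are not given in the sources used here. The authors deposited whole-number counts and FPKM for 34745 genes, per the file headers. Counts were analysed with edgeR 4.0.16 in R 4.3.3: filterByExpr kept 12556 genes, TMM scaling was used, and the 2 groups were set against each other with the quasi-likelihood F-test, with Benjamini-Hochberg adjustment over the genes tested. SEs were taken from the fold change and the F statistic (absolute value over root F). The deposited FPKM values were multiplied by the column total over the TMM-scaled total. The script was tested on simulated data, with changed genes drawn from all those tested. It recovered 53 of 100 genes changed 2-fold and 86 of 100 changed 4-fold, with 10 false calls. A gene that did not pass may thus still differ. Depth limits the precision of members with few counts. Exon overlaps come from GENCODE M21, where 31 of the 39 members have the deposited coordinates; 20 of 39 overlap another gene's exons. The members and lists were chosen with earlier results of these data known. Every library value was given for members that passed and for Brca1, Brca2, Fancd2, Fanci, Msh6, Atm, Atr, Chek1, Chek2 and Rad18, with the 2 highest and 2 lowest fold changes of the others; comparison lists name at most 4 genes each, by adjusted p, and some genes are not reported here. Alternatives were DESeq2 1.42.0, its size factors, limma-voom (limma 3.58.1), no filter, no mitochondrial genes, a replicate block and each library left out.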

Additional observations from a re-analysis of the deposited data

How the results depend on the processing

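With DESeq2 size factors, without the 13 mitochondrial genes, without a filter, by DESeq2 and by limma-voom, 10, 10, 11, 13 and 14 members were lower, and each of these sets held all 10 of the main fit. By DESeq2 1 member, Atrip, was higher. Leaving out 1 library gave 2 to 21 members lower, 0 to 1 higher, 10 to 50 genes called in the comparison lists and 1404 to 3135 over all genes, with member medians from -0.72 to -0.51. Whether the replicate numbers pair samples cannot be settled from 3 libraries a group. Same-numbered deviations correlated at -0.0019, 0.0025 and 0.072. HKO 1 and HKO 2 each correlated best with another number, and HKO 3 with its own. With a replicate block 7 members were lower and 1, Atrip, was higher. Chek2, Rad50 and Rad51ap1 did not pass with the block (adjusted p = 0.0512, 0.0817 and 0.0564), nor did Sox9 (adjusted p = 0.0652). Directions turned only in members that did not pass, on leaving out a library: Fancc ran from -0.0033 to 0.31, Fance from -0.18 to 0.14, Topbp1 from -0.19 to 0.17, Nbn from -0.075 to 0.033, Rmi2 from -0.68 to 0.36, Atm from -0.20 to 0.34 and Brca2 from -0.26 to 0.014. The cause was not tested. Fits without a library compare 2 samples with 3, and depth limits the 10 members with under 20 counts in a library.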

Other observations

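Repair routes that need no sister chromatid were read from 2 further lists. Of 9 end joining genes 1 fell (11.1%, against 11.2% of all tested genes), Prkdc, which encodes the catalytic kinase subunit that holds broken ends, from 10.6 ± 0.853 to 7.01 ± 0.198 CPM (SD, n = 3; log2 fold change -0.59, adjusted p = 0.0172); its call was lost without WT 2 (adjusted p = 0.066). The list's median log2 fold change was -0.17. Of 26 tested excision repair genes 2 rose and 2 fell (7.69% lower, against 11.2% of all tested genes); the list's median log2 fold change was -0.10. Ercc2, a helicase gene of nucleotide excision repair, rose with 0.43, and Apex1 and Lig3, a nuclease and a ligase gene of base excision repair, fell with -0.46 and -0.39; each of these 3 lost its call in 5 of 6 fits with a library left out (adjusted p up to 0.133).

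Of the 39 repair genes 6 lie on chromosome 11 with Sox9: Brca1, Eme1, Rad51c, Brip1, Rad50 and Fancl, at 11.2, 18.1, 25.4, 26.6, 59.1 and 86.3 Mb from it. Rad50 alone of these passed the test.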
